A study of Mus musculus with 32 samples.

Results

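The 9 genes described here make, store, recapture and break down the catecholamines noradrenaline and dopamine: Th, Ddc, Dbh and Gch1 (synthesis), Slc6a2, Slc18a1 and Slc18a2 (transport), and Maoa and Maob (breakdown). They were chosen by name, through the RefSeq accession of each probe, and are 9 of 20660 named genes, on 12 of 55681 probes of a mouse expression array. All 12 probes were well above background on all 32 arrays. Levels were measured in 4 groups, all of strain background 129+Ter/SvJcl. Passaged spheres are 4 cultures from TH-MYCN hemizygous mice aged 3 weeks that had been passaged 5 times, each measured on 2 arrays. Primary spheres are 8 cultures grown for 8 days from TH-MYCN hemizygous mice aged 3 weeks. TH-MYCN SMG is 8 samples of the superior mesenteric ganglion, a sympathetic ganglion of the abdomen, of such hemizygous mice of the same age, and wild-type SMG is 8 samples of that ganglion of wild-type mice, also aged 3 weeks. The labels number the samples of a group without saying whether they came from separate animals or cultures, so p-values measure the spread between these samples. The transgene is a human MYCN gene driven by a tyrosine hydroxylase promoter, so it is active in cells of the lineage that also uses Th, and no probe was identified for it. Spheres are floating clusters of cells kept in culture. The labels do not say which tissue of the mouse was put into culture, or whether the primary cultures measured here gave the passaged ones.

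Catecholamines are made from the amino acid tyrosine. TH, the rate-limiting enzyme, turns tyrosine into L-DOPA with the cofactor tetrahydrobiopterin, which is made from GTP along a route that GCH1 opens. DDC turns L-DOPA into dopamine, the vesicular transporters SLC18A1 and SLC18A2 load monoamines into vesicles, and DBH turns dopamine into noradrenaline inside them. SLC6A2 takes released noradrenaline back into the cell, and MAOA and MAOB, enzymes of the outer mitochondrial membrane, oxidise monoamines in the cytosol. Mature sympathetic neurons make, store, recapture and break down noradrenaline. Neuroblastoma arises from the same lineage, and catecholamine breakdown products are used in its diagnosis.

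RefSeq promoter windows (mouse assembly GRCm38.p6) were matched by symbol for 6 of the 9 genes. The 250 bases before the start site are shown for 4 of them: Th, whose promoter type drives the transgene, and Dbh, Slc18a2 and Maoa, which stand for the later synthesis step, vesicle loading and breakdown. Capitals mark matches, on either strand, to any of 5 motifs that were searched for: the cyclic AMP response element TGACGTCA, the E-box CACGTG, the AP-1 motif TGANTCA, the GC box GGGCGG and the TATA box TATAAA.
Th, chr7:142899996-142900245, minus strand: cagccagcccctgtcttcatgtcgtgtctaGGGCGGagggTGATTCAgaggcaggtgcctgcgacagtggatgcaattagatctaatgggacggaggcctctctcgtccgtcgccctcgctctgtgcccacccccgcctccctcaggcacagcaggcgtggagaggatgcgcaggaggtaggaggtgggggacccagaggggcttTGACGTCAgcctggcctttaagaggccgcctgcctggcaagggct
Dbh, chr2:27165257-27165506, plus strand: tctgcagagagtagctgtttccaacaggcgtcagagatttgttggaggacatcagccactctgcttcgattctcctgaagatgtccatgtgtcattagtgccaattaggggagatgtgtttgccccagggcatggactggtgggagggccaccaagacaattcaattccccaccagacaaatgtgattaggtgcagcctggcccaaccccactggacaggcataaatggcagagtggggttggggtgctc
Slc18a2, chr19:59260628-59260877, plus strand: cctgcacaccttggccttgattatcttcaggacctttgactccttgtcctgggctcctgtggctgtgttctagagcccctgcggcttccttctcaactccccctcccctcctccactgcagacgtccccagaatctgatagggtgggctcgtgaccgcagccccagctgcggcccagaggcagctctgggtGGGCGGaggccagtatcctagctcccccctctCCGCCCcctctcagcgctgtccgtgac
Maoa, chrX:16619448-16619697, plus strand: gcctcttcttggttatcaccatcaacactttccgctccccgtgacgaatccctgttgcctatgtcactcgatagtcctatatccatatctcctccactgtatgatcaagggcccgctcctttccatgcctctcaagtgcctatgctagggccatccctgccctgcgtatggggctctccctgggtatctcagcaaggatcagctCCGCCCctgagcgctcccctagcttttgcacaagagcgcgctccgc
The Th window held a TGACGTCA that begins 45 bases before the start site, an AP-1 motif at 210 bases and a GC box at 220 bases. Among all 32851 windows of 250 bases in the table, 1.55% held TGACGTCA and 6.75% held TGANTCA. The Slc18a2 window held GC boxes at 59 and 27 bases and the Maoa window 1 at 46 bases, a motif found in 32.7% of all windows. The Dbh window held none of the 5 motifs. CACGTG, found in 6.02% of all windows, was in no window of the 6 genes. TATAAA, found in 12.4% of all windows, was in 1 of the Ddc windows and in that of Gch1. These matches describe letters and were not measured as binding sites.

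A level below is the log2 processed signal of the probe minus the 75th percentile of signal on its array, so that 0 is the 75th percentile, and levels are compared between groups for 1 probe at a time. Differences were tested with limma over all genes tested in a comparison, and a gene was called at a Benjamini-Hochberg adjusted p under 0.05. The arrays of the 2 tissues lie on slides 1 and 2 and those of the spheres on slides 3 and 4, so that slide and culture cannot be told apart. On slides 1 and 2 both groups are present but lie in different rows of the slide, and row and genotype cannot be told apart. The same holds for passaged and primary spheres. These are bulk samples, in which fewer cells of a type and less RNA per cell cannot be told apart.

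Marker lists describe what else the samples held. The summed level of a list is the sum of its genes' signals relative to the array's 75th percentile. All 8 neuron markers were tested, and their summed level was 435 to 538 in passaged spheres, 442 to 522 in primary spheres, 389 to 635 in TH-MYCN SMG and 761 to 925 in wild-type SMG. The summed level of 8 markers of Schwann and satellite glia was 1.44 to 1.63, 2.13 to 11.4, 54.5 to 81.1 and 117 to 143 in the same order. For 5 fibroblast markers it was 0.0630 to 0.105, 0.0536 to 0.869, 110 to 141 and 176 to 290. For 5 macrophage markers it was 0.748 to 0.953, 0.595 to 1.1, 21.5 to 41.1 and 13.7 to 19.0. In passaged spheres none of the 5 fibroblast markers, including Dcn and Col1a1, was well above background. The 2 chromaffin markers, Pnmt and Penk, summed to 0.112 to 0.407 in passaged spheres, 0.300 to 0.374 in primary spheres, 1.22 to 2.21 in TH-MYCN SMG and 0.996 to 3.39 in wild-type SMG.

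TH-MYCN SMG had a lower level, relative to the scaling of each array, of every one of the 9 genes than wild-type SMG. All 9 were called lower, by 1.44-fold (Ddc) to 2.13-fold (Slc6a2). The call of Dbh depended on the scaling: after quantile normalization its difference was -0.18 and was not called (limma adjusted p = 0.0883). Of all 15825 genes tested, 43.8% were called lower and 21.9% higher, and the median gene differed by -0.22 on the log2 scale, against a median of -0.84 for the 9 genes. The 8 neuron markers were also all called lower, with a median of -0.61, and 7 of 8 glia markers, with a median of -0.97, while 5 of 5 macrophage markers were called higher, with a median of 1.48. What part these have in the catecholamine result was not tested.

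Th, the gene of the rate-limiting enzyme, had levels of 7.29 to 8.21 (median 7.76) in TH-MYCN SMG, against 8.30 to 8.79 (median 8.60) in wild-type SMG. The groups did not overlap, but the share of all genes tested without overlap was not counted in this comparison. The difference was -0.84 ± 0.13 (SE, n = 8 each), a 1.80-fold lower signal (95% interval 1.48 to 2.18), with a limma adjusted p of 6.02e-05. Ddc, which makes dopamine, had levels of 6.72 to 7.14 (median 6.92) in TH-MYCN SMG, against 7.30 to 7.68 (median 7.41) in wild-type SMG. It too showed no overlap, and its difference of -0.53 ± 0.08 was the smallest of the 9 (limma adjusted p = 2.37e-05). Dbh, which makes noradrenaline, had levels of 7.75 to 8.42 (median 8.10) in TH-MYCN SMG, against 8.24 to 9.11 (median 8.61) in wild-type SMG. Here the groups overlapped, and the difference of -0.54 ± 0.11 (limma adjusted p = 6.68e-04) was -0.18 with an adjusted p of 0.0883 after quantile normalization. Gch1, which opens the cofactor route, had levels of 4.07 to 5.03 (median 4.69) in TH-MYCN SMG, against 4.90 to 5.69 (median 5.38) in wild-type SMG. The groups overlapped, and the difference was -0.69 ± 0.15 (limma adjusted p = 7.26e-04).

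Among the transporters, Slc6a2, the noradrenaline reuptake transporter, had levels of 5.19 to 6.53 (median 5.96) in TH-MYCN SMG, against 6.55 to 7.33 (median 6.97) in wild-type SMG. All 8 TH-MYCN ganglia lay below the lowest wild-type ganglion, as a description, since the share of all genes without overlap was not counted. The difference of -1.09 ± 0.19 was the largest of the 9, a 2.13-fold lower signal (95% interval 1.61 to 2.83, limma adjusted p = 1.43e-04). Slc18a2, the vesicular monoamine transporter of neurons, had levels of 5.13 to 6.16 (median 5.57) in TH-MYCN SMG, against 6.18 to 6.53 (median 6.42) in wild-type SMG. The groups came close without overlap, and the difference was -0.82 ± 0.13 (limma adjusted p = 5.93e-05). Slc18a1, the vesicular monoamine transporter best known from endocrine cells, had levels of 2.55 to 4.24 (median 3.56) in TH-MYCN SMG, against 4.01 to 4.84 (median 4.45) in wild-type SMG. It overlapped and had the widest spread among TH-MYCN ganglia of the 9 genes (SD 0.58), with a difference of -0.92 ± 0.22 (limma adjusted p = 0.00163).

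Both monoamine oxidases were lower without overlap, a description only, since the share of all genes without overlap was not counted. Maoa had levels of 4.88 to 5.76 (median 5.34) in TH-MYCN SMG, against 6.17 to 6.45 (median 6.26) in wild-type SMG, a difference of -0.95 ± 0.11 (limma adjusted p = 3.00e-06). Maob had levels of 3.27 to 4.34 (median 3.66) in TH-MYCN SMG, against 4.44 to 4.86 (median 4.56) in wild-type SMG, a difference of -0.85 ± 0.13 (limma adjusted p = 3.47e-05). Within slide 1, with 4 ganglia of each genotype, all 9 genes were called lower, with differences from -0.48 (Ddc) to -1.14 (Slc18a1). Of all 15405 genes tested there, 4691 were called lower. Within slide 2 all 9 were called lower again, with differences from -0.44 (Dbh) to -1.24 (Slc6a2), as were 6684 of 15403 genes. With slide as a block the 9 calls also held, beside 7543 of 15825 genes called lower. Relative to the median gene the 9 differences ran from -0.31 (Ddc) to -0.87 (Slc6a2). All 9 were called lower when the median gene was set to no difference, as were 4149 of 15825 genes. That scaling was chosen after seeing the data and made 55.5% of all calls higher ones, against 33.4% before it. The second probes of Ddc, Gch1 and Slc18a2 were lower too, by -0.55, -0.86 and -0.73 on the log2 scale.

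**Figure D1:**
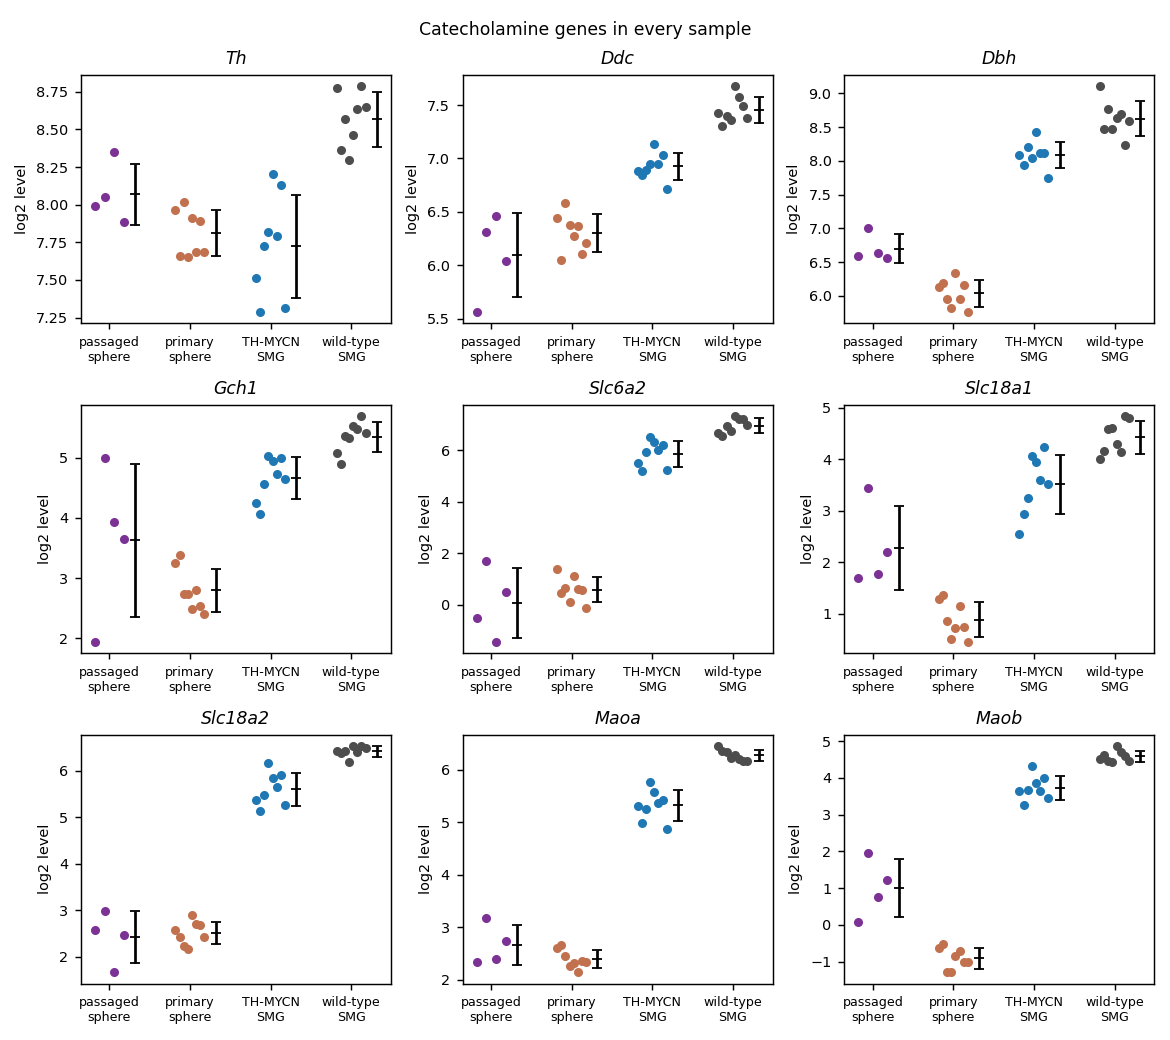
Log2 level (signal relative to the array's 75th percentile) of each of the 9 genes in every sample, 1 point per sample, with the mean and SD of each group beside its points. Groups run from passaged spheres (n = 4, each the mean of 2 arrays) through primary spheres and TH-MYCN SMG to wild-type SMG (n = 8 each); Slc6a2, Slc18a2 and the monoamine oxidases of the spheres lie far below both tissues, while Th in the spheres lies within or near the range of 7.29 to 8.21 of TH-MYCN SMG (after quantile normalization it lies lower there).

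Genes around the 9 were read from lists of the pathway. Of 7 genes that make, regulate or recycle tetrahydrobiopterin, 5 were called lower and 2 higher in TH-MYCN SMG than in wild-type SMG. In this comparison 43.8% of all genes tested were called lower and 21.9% higher. Pcbd2, a homologue of the recycling enzyme Pcbd1, was called higher, by 1.58, while Gchfr, the feedback regulator of GCH1, differed by -0.97 and Pcbd1 by -0.86 (limma adjusted p at most 9.11e-05 for these 3). All 3 genes that serve DBH with copper or ascorbate were called lower: the copper pump Atp7a by -0.76, Cyb561, the cytochrome that regenerates ascorbate inside vesicles, by -0.64, and the ascorbate transporter Slc23a2 by -0.43. All 5 further breakdown enzymes on the array were called lower, among them Sult1a1 by -0.87 and Aldh2 by -0.84. Against this, Pnmt, which turns noradrenaline into adrenaline, was higher in TH-MYCN SMG, with a level of -0.73 ± 0.55 against -2.47 ± 0.70 in wild-type SMG (SD, n = 8 each) and a difference of 1.74 ± 0.29 (SE, limma adjusted p = 9.47e-05). Penk, the other chromaffin marker, was lower, by -0.69 (limma adjusted p = 0.00942). Ganglion 1 of TH-MYCN SMG stood apart in 5 adrenal cortex markers, with a summed level of 3.02 against 0.120 to 0.191 in the other 7, and its Pnmt level was -0.32, within the range of -1.85 to -0.05 of the others. Without it, all 9 catecholamine genes were still called lower.

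Of 14 adrenergic and dopamine receptors, 10 were tested. Of these, 8 were called lower and 1 higher, beside 43.8% and 21.9% of all genes tested. The higher one was the dopamine receptor Drd4, at least 8.55-fold higher, since no wild-type ganglion had its probe well above background (limma adjusted p = 9.11e-08). Adrb3, Drd2 and Drd3 differed by -1.59, -1.32 and -1.28, Adrb3 and Drd3 not being well above background in every TH-MYCN ganglion. Among genes of other transmitters, 3 of 9 tested were called higher and 5 lower, beside 21.9% and 43.8% of all genes tested. Gad2, which makes the transmitter GABA, was higher by 4.69 ± 0.26 (limma adjusted p = 3.79e-10). Tph2, the first enzyme of serotonin synthesis in neurons, was at least 3.75-fold higher and Slc17a6, a vesicular glutamate transporter, at least 3.11-fold higher, neither being well above background in any wild-type ganglion.

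The 8 TH-MYCN ganglia differed among themselves along the level of mitosis genes. The mitosis score, the mean log2 level of 12 genes of cell division, was 2.19 ± 0.72 in TH-MYCN SMG, against -3.36 ± 0.53 in wild-type SMG (SD, n = 8 each). In ganglion 4 of TH-MYCN SMG, with the lowest score of 0.85, Slc18a2 was at 6.16, Slc6a2 at 6.53 and Maob at 4.34. In ganglion 2, with the highest score of 2.97, Slc18a2 was at 5.13, Slc6a2 at 5.19 and Maob at 3.27. In these 3 genes ganglion 4 was the highest of the 8 and stood nearest to the wild-type ganglia, whose lowest Slc18a2 level was 6.18.

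Over the 8 TH-MYCN ganglia all 9 genes had a negative correlation with the score. For Slc18a2 Pearson's r was -0.98 and Spearman's rho was -1, each with an exact permutation p of 4.96e-05, the smallest that 8 samples allow (two-sided, adjusted p = 4.46e-04 over the 9 genes for either). For Maob r was -0.96 (exact permutation p = 2.98e-04, adjusted 7.81e-04) and rho -0.98 (p = 3.97e-04, adjusted 0.00119). For Slc6a2 r was -0.91 (exact permutation p = 9.92e-05, adjusted 4.46e-04) and rho -0.98 (p = 3.97e-04, adjusted 0.00119). Maoa, Gch1 and Slc18a1 had r of -0.90, -0.86 and -0.80 with exact permutation p adjusted to 0.00170, 7.81e-04 and 0.0138, and rho of -0.93, -0.93 and -0.86. By r, 6 of the 9 genes passed, and an r as low as theirs was found in 0.329% (Slc18a2) to 20.9% (Slc18a1) of all genes tested.

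The other genes, Th, Ddc and Dbh, also had the brightest probes of the 9 in TH-MYCN SMG, and their r changed with the scaling. Whether brightness bears on which genes passed was not tested. Th had r of -0.72 (exact permutation p = 0.0486, adjusted 0.0625) and rho of -0.90 (p = 0.00456, adjusted 0.00685). Ddc had r of -0.63 (exact permutation p adjusted to 0.119) and rho of -0.88 (adjusted 0.00931), and Dbh had r of -0.37 (adjusted 0.372) and rho of -0.50 (adjusted 0.216). Th and Ddc thus passed by rank and not by r. Without ganglia 4 and 7, the 2 farthest from the median score, r over the other 6 was -0.97 for Slc18a2, -0.85 for Maob, -0.92 for Slc6a2, -0.95 for Th and -0.78 for Dbh. Slc18a1 no longer passed there (r = -0.77, exact permutation p adjusted to 0.0563), though its r was close to that over all 8, while Th and Ddc passed (adjusted 0.00833 and 0.0393). With values centred within slides, r was -0.98 for Slc18a2, -0.96 for Maob, -0.91 for Slc6a2, -0.73 for Th and -0.36 for Dbh. After quantile normalization all 9 genes passed by r, with -0.92 for Th, -0.95 for Ddc and -0.96 for Dbh. The share of all genes with an r as low was not counted under these other settings. A slide holds 4 of these ganglia, too few for a value of its own.

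Many genes moved with this score. Among 15814 tested genes outside the score, the median r was -0.12. An r at or below that of the gene was found in 0.329% of them for Slc18a2, 1.91% for Maob, 7.69% for Slc6a2, 10.4% for Maoa, 15.3% for Gch1, 20.9% for Slc18a1, 27.4% for Th and 42.4% for Dbh. The score and the 9 genes share each array and its scaling. The mean log2 level of the neuron markers was 5.78 in ganglion 4 and 5.31 in ganglion 2, that of the glia markers 1.07 and -0.02, and that of the macrophage markers 1.94 and 2.88. Their part in the relation was not tested.

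**Figure D2:**
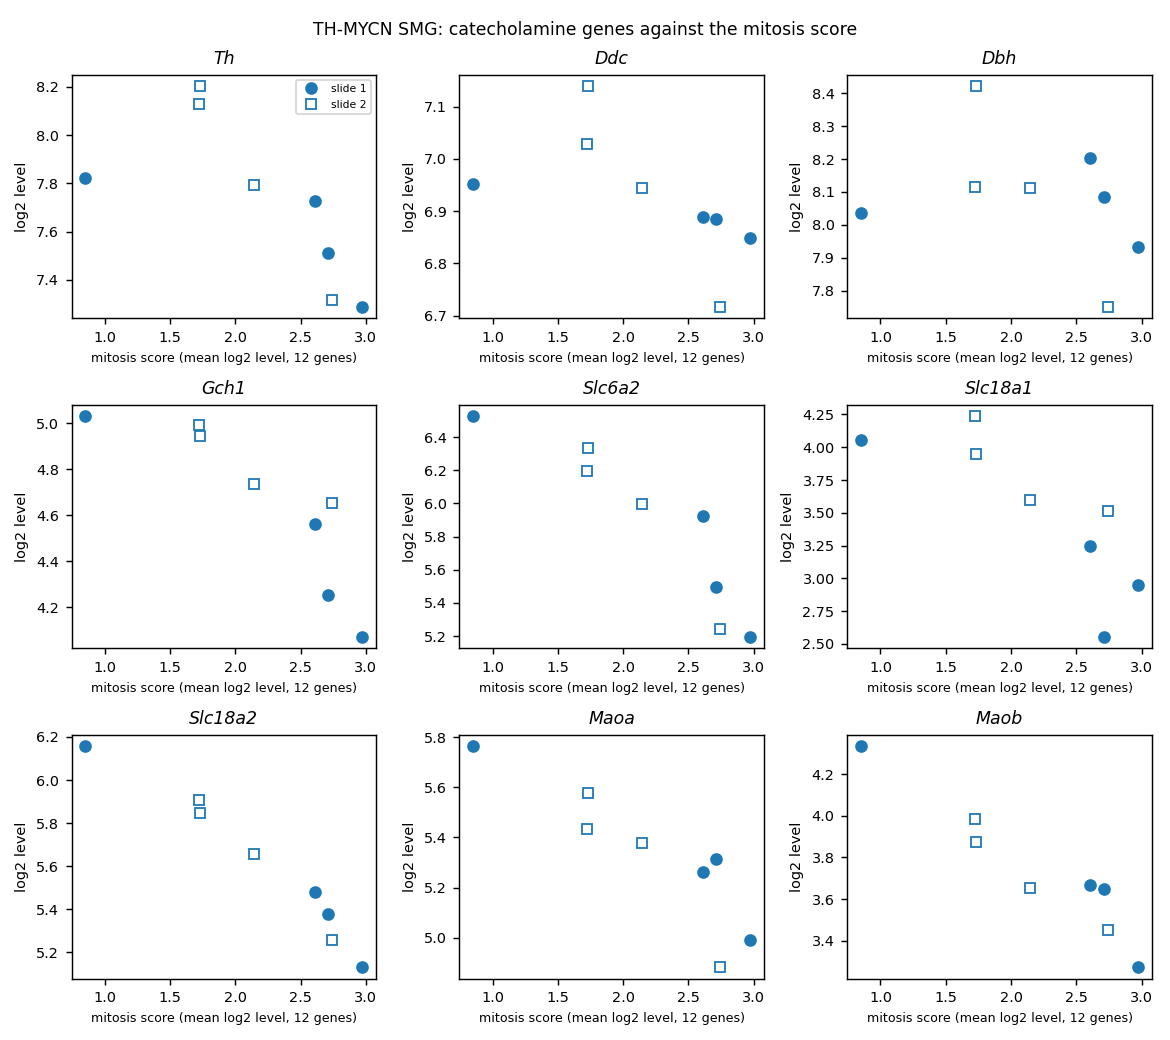
Log2 level of each of the 9 genes against the mitosis score (mean log2 level of 12 mitosis genes) in the 8 TH-MYCN ganglia, with filled circles for slide 1 and open squares for slide 2. Slc18a2 falls in the exact reverse order of the score (rho = -1), while Dbh is spread (r = -0.37); the point at a score of 0.85 is ganglion 4.

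Primary spheres, set against TH-MYCN SMG, had a Th signal not called different from that of the ganglion, which quantile normalization changed, while the other 8 genes were called lower, from 1.54-fold (Ddc) to 38.8-fold (Slc6a2). Of 15636 genes tested, 32.9% were called lower and 50.3% higher, and the median gene differed by 0.27. Each of the 8 genes was lower in every primary sphere than in every TH-MYCN ganglion. What share of all genes tested had groups without overlap was not counted, so this is a description of the 8 genes only. The median difference of the 9 genes was -2.63.

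Th had levels of 7.65 to 8.02 (median 7.79) in primary spheres, against 7.29 to 8.21 (median 7.76) in TH-MYCN SMG. The spheres lay inside the range of the ganglia, with a difference of 0.09 ± 0.13 (95% interval -0.19 to 0.36, limma adjusted p = 0.542). This depended on the scaling: the difference was -0.90 with an adjusted p of 6.01e-05 after quantile normalization, -0.06 (0.674) with normexp background correction, and -0.19 (0.193) with the median gene set to no difference. Ddc had levels of 6.05 to 6.59 (median 6.32) in primary spheres, against 6.72 to 7.14 (median 6.92) in TH-MYCN SMG, a difference of -0.63 ± 0.08 (limma adjusted p = 2.14e-06). Its second probe differed by -0.20 with an adjusted p of 0.102. Dbh had levels of 5.76 to 6.34 (median 6.04) in primary spheres, against 7.75 to 8.42 (median 8.10) in TH-MYCN SMG, a 4.13-fold lower signal (95% interval 3.57 to 4.78, limma adjusted p = 1.04e-11). Gch1 had levels of 2.41 to 3.38 (median 2.74) in primary spheres, against 4.07 to 5.03 (median 4.69) in TH-MYCN SMG, a 3.63-fold lower signal (95% interval 2.84 to 4.64, limma adjusted p = 2.21e-08). The synthesis genes thus differed by unlike amounts, with Th and Ddc moving least.

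Reuptake showed the largest difference. Slc6a2 had levels of -0.13 to 1.39 (median 0.57) in primary spheres, against 5.19 to 6.53 (median 5.96) in TH-MYCN SMG, a 38.8-fold lower signal (95% interval 27.5 to 54.8, limma adjusted p = 3.09e-12). Slc18a2 had levels of 2.17 to 2.89 (median 2.51) in primary spheres, against 5.13 to 6.16 (median 5.57) in TH-MYCN SMG, an 8.49-fold lower signal (95% interval 6.85 to 10.5, limma adjusted p = 6.90e-12). Slc18a1 had levels of 0.45 to 1.37 (median 0.80) in primary spheres, against 2.55 to 4.24 (median 3.56) in TH-MYCN SMG, a 6.17-fold lower signal (95% interval 4.44 to 8.58, limma adjusted p = 1.16e-08). For all 3 transporters the difference between the group means was larger in size than the SD of either group.

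For breakdown, Maob had levels of -1.29 to -0.53 (median -0.92) in primary spheres, against 3.27 to 4.34 (median 3.66) in TH-MYCN SMG, a 25.1-fold lower signal (95% interval 20.2 to 31.2, limma adjusted p = 4.07e-14). Maoa had levels of 2.14 to 2.65 (median 2.35) in primary spheres, against 4.88 to 5.76 (median 5.34) in TH-MYCN SMG, a 7.65-fold lower signal (95% interval 6.44 to 9.08, limma adjusted p = 7.31e-13). Beside these falls, all 8 glia markers, all 5 fibroblast markers and all 5 macrophage markers were called lower in primary spheres, with medians of -4.15, -8.29 and -9.85, and 2, 1 and 2 of those markers were not well above background in any primary sphere. In this comparison 32.9% of all genes tested were called lower and 50.3% higher. Of the 8 neuron markers 3 were called higher and 3 lower, with a median of -0.00, and the 12 mitosis genes were all called higher, with a median of 1.64. Their part in the result was not tested. Primary spheres of slide 3 held more glia signal than those of slide 4 (summed levels of 5.86 to 11.4 and 2.13 to 2.50). With the primary spheres of either slide alone the same number of the 9 genes, 8, was called. Of all genes tested, 12304 of 15482 were called with slide 3 and 12115 of 15502 with slide 4.

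Set against wild-type SMG, which shares the primary spheres with the comparison above, all 9 genes were called lower in primary spheres. None of the 9 overlapped, but the share of all genes without overlap was not counted here either. Of 15884 genes tested, 40.7% were called lower and 43.1% higher, and the median gene differed by 0.05. Th was 1.69-fold lower (95% interval 1.49 to 1.92, limma adjusted p = 3.08e-07) and Ddc 2.22-fold lower (limma adjusted p = 4.65e-10). Slc6a2 was 82.9-fold lower (95% interval 62.7 to 110) and Maob 45.2-fold lower (38.4 to 53.3). Dbh, Gch1, Slc18a1, Maoa and Slc18a2 lay between these, at 6.01-fold, 5.85-fold, 11.7-fold, 14.8-fold and 14.9-fold lower.

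**Figure D3:**
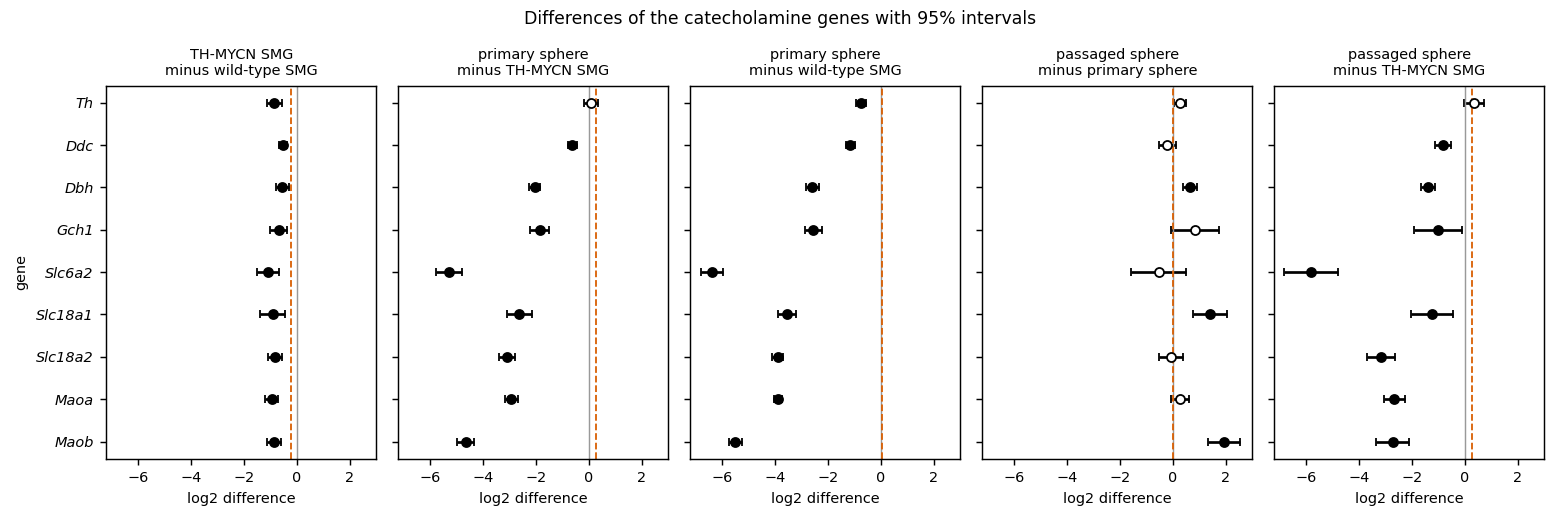
Log2 difference of each of the 9 genes in the 5 comparisons, with 95% intervals; filled points were called at an adjusted p under 0.05 (limma), open points were not, the grey line marks no difference and the dashed line the median of all genes tested. Slc6a2 and Maob lie farthest to the left in primary spheres, at -5.28 and -4.65 against TH-MYCN SMG; Th is not called there at 0.09, but is called lower after quantile normalization. Comparisons that share a group are not independent.

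The pathway around the 9 genes differed in part between primary spheres and TH-MYCN SMG. Of the 7 tetrahydrobiopterin genes, 5 were called lower and 1 higher, beside 32.9% and 50.3% of all genes tested. Pcbd2 differed by -1.91, Pcbd1 by -1.27 and Gchfr by -0.65. Cyb561 was lower by -2.55 ± 0.11 (limma adjusted p = 3.09e-12), an amount between those of Dbh and Slc18a1. The other two genes of that list were not called. Sult1a1, a sulfotransferase, was at least 163-fold lower, as no primary sphere had its probe well above background, and the aldehyde dehydrogenase Aldh2 differed by -1.66. Akr1b3, an aldose reductase, was higher by 0.57. Pnmt differed by -1.02 (limma adjusted p = 9.40e-05).

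All 4 tested transporters of the list of other monoamine transporters were called lower in primary spheres than in TH-MYCN SMG. In this comparison 32.9% of all genes tested were called lower and 50.3% higher. The dopamine transporter gene Slc6a3 was at least 3.33-fold lower and the serotonin transporter gene Slc6a4 differed by -1.66. Among the receptors, 5 of 10 tested were called lower and 3 higher, to be read beside those shares. Adra2a, an inhibitory receptor of noradrenergic neurons, had the largest difference, -5.98 ± 0.28 (limma adjusted p = 6.31e-12), with a level of -3.14 in primary spheres and 2.84 in TH-MYCN SMG. Drd2 was at least 7.07-fold lower, while Adrb3 was higher by 3.12. Among genes of other transmitters, 4 of 8 tested were called lower and 3 higher, again beside 32.9% and 50.3% of all genes. Slc5a7, the choline transporter, was at least 2.20-fold lower, and Slc18a3, the vesicular acetylcholine transporter, was higher by 2.93 ± 0.20 (limma adjusted p = 8.22e-10).

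After 5 passages, 3 of the 9 genes were called higher than in primary spheres and none lower. Of 14150 genes tested, 5.17% were called higher and 6.54% lower, and the median gene differed by 0.01. Maob had levels of 0.08, 1.97, 0.76 and 1.21 in passaged cultures 1 to 4, against -1.29 to -0.53 (median -0.92) in primary spheres. All 4 cultures lay above all primary spheres, with a difference of 1.92 ± 0.28, a 3.78-fold higher signal (limma adjusted p = 0.00202). Slc18a1 had levels of 1.69, 3.45, 1.78 and 2.20 in passaged cultures 1 to 4, against 0.45 to 1.37 (median 0.80) in primary spheres. It did not overlap and differed by 1.39 ± 0.30 (limma adjusted p = 0.0134). How many of all genes lacked overlap was not counted for these groups. Within slide 4 the Slc18a1 difference was 1.5 (adjusted p = 0.0470), but within slide 3, with 4 cultures of each kind, it was 1.28 with an adjusted p of 0.0981, and against primary spheres of slide 3 alone 1.27 with 0.0771. Dbh had levels of 6.58, 7.01, 6.63 and 6.56 in passaged cultures 1 to 4, against 5.76 to 6.34 (median 6.04) in primary spheres, and was higher by 0.66 ± 0.12 (limma adjusted p = 0.00600). Within slides 3 and 4 the differences were 0.64 and 0.68 for Dbh, and 1.96 and 1.87 for Maob, all called.

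The other 6 genes were not called. Th had levels of 7.99, 8.05, 8.35 and 7.88 in passaged cultures 1 to 4, against 7.65 to 8.02 (median 7.79) in primary spheres, with a difference of 0.26 (95% interval 0.04 to 0.48, limma adjusted p = 0.115). The intervals were wide for Slc6a2 (-1.57 to 0.51, difference -0.53) and Gch1 (-0.09 to 1.75, difference 0.83). Gch1 was called higher, by 1.39 with an adjusted p of 0.0119, without passaged culture 1. Ddc differed by -0.21, Slc18a2 by -0.09 and Maoa by 0.27.

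The 4 passaged cultures differed from each other in several of these genes by far more than the 2 arrays of a culture did. Gch1 was at 1.98 and 1.90 on the arrays of culture 1, 5.11 and 4.88 of culture 2, 3.99 and 3.88 of culture 3, and 3.64 on both of culture 4. Slc6a2 was at -0.56 and -0.46 in culture 1, 1.69 and 1.72 in culture 2, -1.53 and -1.39 in culture 3, and 0.44 and 0.52 in culture 4. The means of the cultures spanned 3.06 for Gch1 and 3.17 for Slc6a2 on the log2 scale, while the arrays of 1 culture differed by at most 0.23 and 0.15. For Maob the span was 1.89, for Slc18a1 1.76, for Slc18a2 1.32, for Ddc 0.90 and for Maoa 0.85. Th and Dbh spanned 0.47 and 0.45. As a description of these 4 cultures, the SD between them was larger than that of Slc6a2 in 0.480% of the 12080 genes well above background on the 8 arrays, and larger than that of Gch1 in 0.612%, but larger than that of Th in 29.6%.

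Culture 2 was the highest of the 4 for Dbh, Gch1, Slc6a2, Slc18a1, Slc18a2, Maoa and Maob, though not for Th and Ddc, which were highest in culture 3. Culture 1 was the lowest for Ddc, Gch1, Slc18a1, Maoa and Maob, and culture 3 for Slc6a2 and Slc18a2. Pnmt had its highest level in culture 2 too, at -1.33, against -2.62, -3.35 and -1.92 in cultures 1, 3 and 4. The mitosis score was 4.22, 4.23, 3.99 and 4.10 in cultures 1 to 4, the mean log2 level of the neuron markers 4.89, 5.36, 5.20 and 5.33, and the summed level of the fibroblast markers 0.0630, 0.0764, 0.0886 and 0.105. The part of these in the differences between cultures was not tested.

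**Figure D4:**
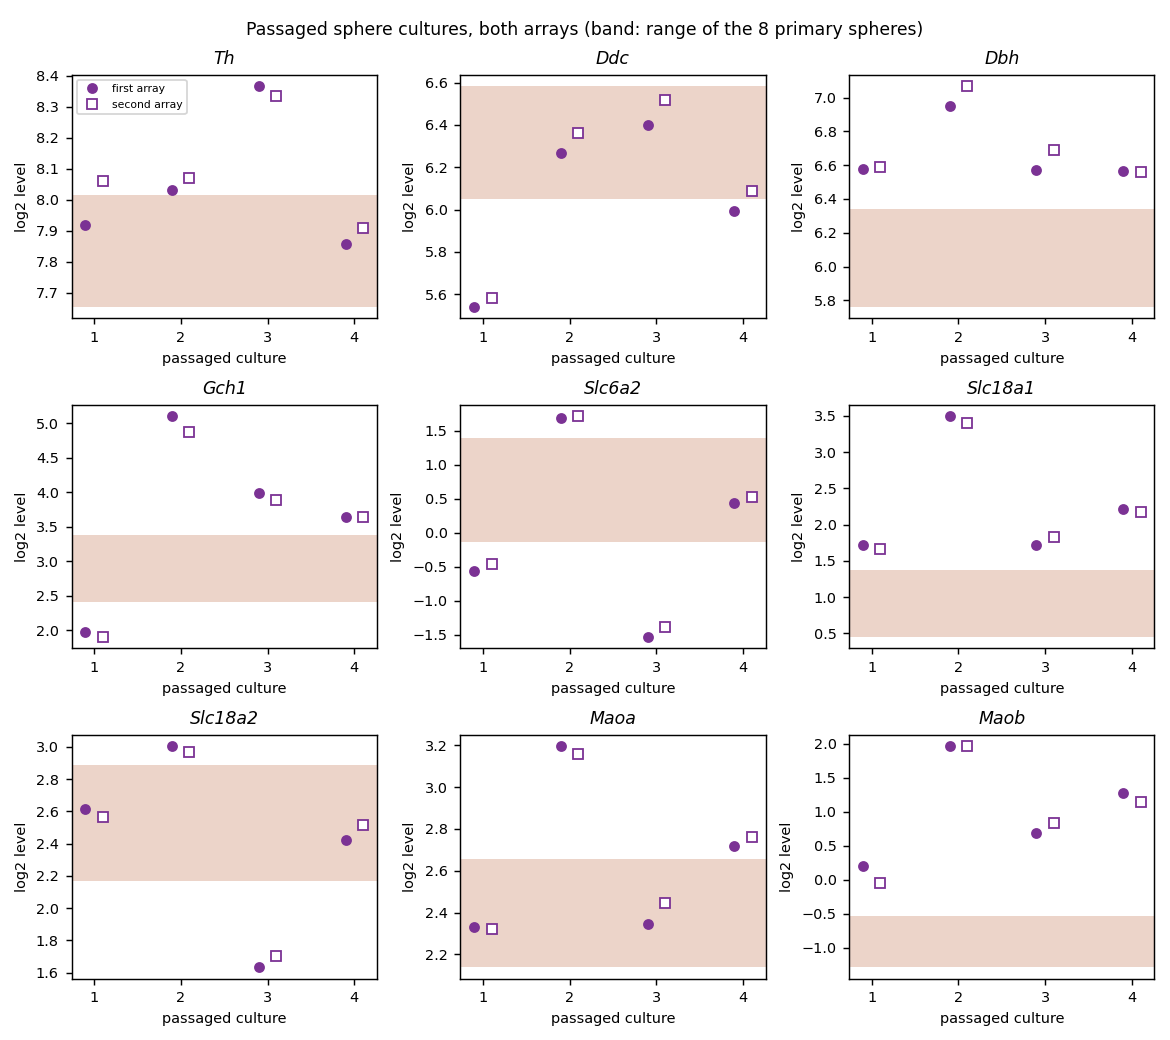
Log2 level of each of the 9 genes in the 4 passaged cultures, with a filled circle for the first array and an open square for the second, and a band from the lowest to the highest of the 8 primary spheres. Maob, Slc18a1 and Dbh lie above the band in all 4 cultures, and Gch1 and Slc6a2 spread on both sides of it while the 2 arrays of a culture lie close together.

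Set against TH-MYCN SMG, which shares its samples with comparisons above, passaged spheres had 8 of the 9 genes called lower. Of 15286 genes tested, 32.9% were called lower and 47.1% higher, and the median gene differed by 0.25. Slc6a2 was 56.1-fold lower (95% interval 27.5 to 115, limma adjusted p = 2.33e-07), Slc18a2 9.03-fold, Maob 6.65-fold, Maoa 6.34-fold, Dbh 2.61-fold, Slc18a1 2.35-fold and Ddc 1.78-fold lower. Gch1 was 2.04-fold lower (95% interval 1.08 to 3.83, limma adjusted p = 0.0384), with groups that overlapped, and its call was lost in 8 of the 12 fits that left out 1 sample, with an adjusted p up to 0.152 (without passaged culture 1, where the difference was -0.46). Th differed by 0.35 (95% interval -0.04 to 0.73, limma adjusted p = 0.0917). The Th difference was -0.70 with an adjusted p of 0.00891 after quantile normalization, but 0.47 with 0.0242 when every array was given the same median level, and it was called higher without TH-MYCN ganglion 5 (0.41, adjusted p = 0.0366) or 7 (0.40, 0.0491).

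Among transcription factors that specify and maintain noradrenergic neurons, some were called higher and some lower in each comparison read here. In TH-MYCN SMG, against wild-type SMG, 5 of 11 were called higher and 2 lower, beside 21.9% and 43.8% of all genes tested. Insm1, a factor of neuroendocrine progenitors, was higher by 7.46 ± 0.32 (limma adjusted p = 3.35e-11) and Isl1 by 0.90, while the activity-induced factor Nr4a1 differed by -0.75. In primary spheres, against TH-MYCN SMG, 6 of 11 were called higher and 4 lower, near the shares of all genes tested (50.3% and 32.9%). Gata2 differed by -3.03 ± 0.18 (limma adjusted p = 1.71e-10) and Nr4a1 by -2.50. In passaged spheres, against primary spheres, 4 of 11 were called higher and 1 lower, beside 5.17% and 6.54% of all genes tested. Gata2 was higher by 1.83 ± 0.45 (limma adjusted p = 0.0241), Insm1 by 0.95 and Gata3 by 0.77, and Phox2a differed by -1.1. Gata2 levels ran from 0.87 to 3.82 over the 4 passaged cultures.

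**Figure D5:**
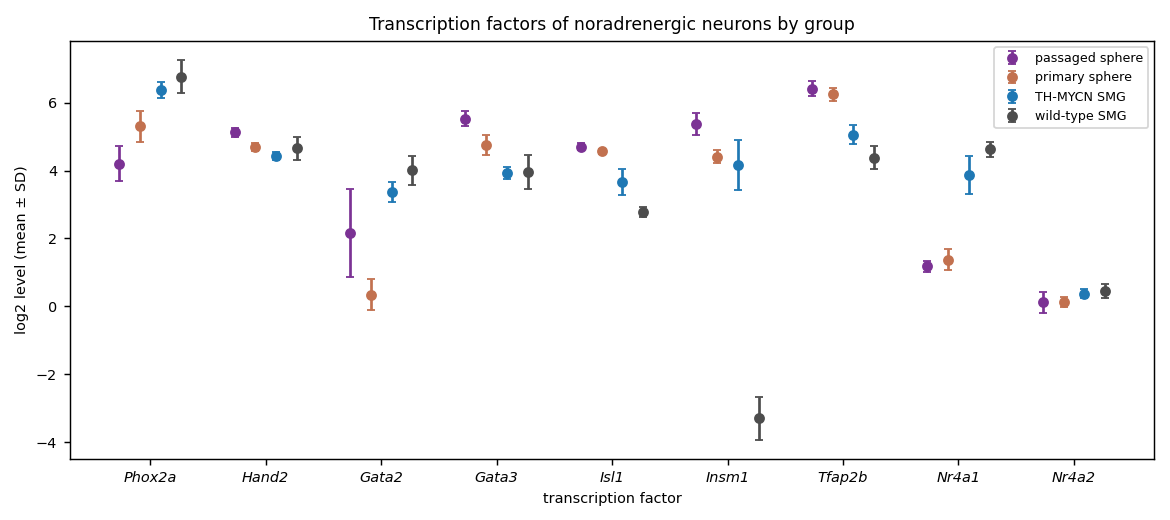
Mean log2 level with SD of 9 transcription factors of noradrenergic neurons in passaged spheres (n = 4), primary spheres, TH-MYCN SMG and wild-type SMG (n = 8 each); levels are to be compared between groups for 1 gene at a time. Insm1 lies at 4.16 in TH-MYCN SMG against -3.29 in wild-type SMG, and Gata2 lies lowest in primary spheres, at 0.34 against 3.37 in TH-MYCN SMG.

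Profiles over the 28 samples, each gene centred on its own mean, were compared among 16077 genes by the root mean square difference. Nearest to Th were Nploc4 (0.16), Fbxl15 (0.17) and Slc35e4 (0.18), and to Ddc Ubxn6 (0.18), Arfgap3 (0.19) and Fbxo4 (0.19). Nearest to Dbh were Lifr (0.23), Gpr1 (0.28) and Rassf2 (0.28), and Lamb1 (0.28) and Helz2 (0.31) were among the 3 nearest to Gch1. For the transporters they were Bean1 (0.40), Lama2 (0.49) and Pigz (0.51) for Slc6a2, Tbx20 (0.34), Loxl3 (0.35) and Gata2 (0.41) for Slc18a1, and Stxbp5l (0.20), Slc41a2 (0.22) and Vamp1 (0.26) for Slc18a2. For breakdown they were Defb42 (0.22), Insl6 (0.23) and Nmi (0.24) for Maoa, and Folh1 (0.41), Cxcr4 (0.45) and Gpr176 (0.49) for Maob. None of the 9 genes was among the 3 nearest of another. The samples share slides and scaling, and likeness of profile is a description.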

How the data were processed

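Cy3-labelled RNA was hybridised to Agilent mouse arrays, 1 sample an array. The labelling protocol names input amounts of 40 or 200 ng without saying which samples had either, and RNA had an integrity number over 8, per the labels. Spot intensity in the authors' scanner files had its background subtracted and its spatial trend removed by Feature Extraction 11.5.1.1. The deposited value table holds log2 values; 99.9% of them equal the values used here less a constant per probe, within 0.05, which fixes its scale and direction; what it was centred on is unknown (column medians -0.48 to 0.51).

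Each array's 75th percentile was subtracted from the log2 of its processed signals, with control spots and outlier spots (109 to 211 per array) left out; no spot was saturated. The 75th percentile of signal was 323 to 539 on passaged sphere, 464 to 564 on primary sphere, 840 to 1358 on TH-MYCN SMG and 523 to 989 on wild-type SMG arrays, and 49.0% to 65.7% of spots were well above background; the number of arrays limits the precision. Arrays of the same passaged culture were averaged, which leaves 28 samples. Of 55681 probes, 27235 were named through RefSeq accessions (GRCm38.p6) and 28446 stayed unnamed. A probe was tested if well above background in at least 4 samples of the comparison, and a gene was represented by its brightest such probe. Groups were compared with limma 3.58.1 (R 4.3.3, lmFit and eBayes, two-sided, Benjamini-Hochberg adjustment over all genes tested), checked on simulated data. A bound ("at least N-fold") sets the brighter group's mean against the mean, per array, of the higher of the dim probe's signal and the lowest signal well above background. Correlations were tested by exact permutation. Named genes are the 9 genes, up to 4 called genes with the largest differences per pathway list and comparison, and the 3 nearest profiles; a few others of the lists are named to complete a count, after their values were seen. The 9 genes, the lists and the tests were chosen with earlier results of these data known. The lists' other genes include Rnls, which no named probe measured. The median spot and local background intensity served for normexp (offset 50). Replicate numbers were not taken to pair the samples: the labels give them no meaning, and in no comparison did every same-numbered pair correlate above 0.1 (range -0.08 to 0.37). Values of some genes of these lists are not reported here.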

Additional observations from a re-analysis of the deposited data

Results flagged for a closer look

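Of 36 sets of samples, 1 per gene and group, 2 held a sample far from the others by Dixon's test, and chance alone flags about 1 such set in 20. Dbh in passaged culture 2 lay at 7.01, above the other 3 cultures at 6.56 to 6.63. Slc18a2 in wild-type ganglion 4 lay at 6.18, below the other wild-type ganglia.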

How the results depend on the processing

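The 9 differences of each comparison were recomputed under other backgrounds, scalings, filters, probe rules, fits, slides and without each sample. Of these values 1283 kept their direction and their side of the threshold, 17 lost a call, 6 gained one and 8 changed sign. The signs changed for Th in primary spheres against TH-MYCN SMG (-0.90 with quantile normalization, -0.056 with normexp, -0.19 with the median gene set to no difference), for Th in passaged spheres against TH-MYCN SMG (-0.70 with quantile normalization), and for Slc18a2 in passaged against primary spheres (0.071 with the replicate block and against primary spheres of slide 3, 0.061 within slide 3, 0.16 without passaged culture 3, with -0.27 as the lowest value when 1 sample was left out), where no value was called. The cause was not tested. The number of the 9 genes called ranged from 8 to 9, 8 to 9 and 9 to 9 for TH-MYCN SMG against wild-type SMG, primary spheres against TH-MYCN SMG and primary spheres against wild-type SMG, and from 2 to 4 and 7 to 9 for passaged spheres against primary spheres and against TH-MYCN SMG. The number related to the mitosis score by r was 6, against 6 with normexp, 7 centred within slides, 7 without the 2 farthest ganglia and 9 with quantile normalization. How many of all genes would pass under each of these was not counted. Same-numbered samples were not shown to be paired; with the replicate block 2 of the 9 genes were called in passaged against primary spheres, where it uses only primary spheres 1 to 4, and every one of 4 passaged cultures correlated best with its own number, a hint from the data and not the design. In passaged spheres against TH-MYCN SMG the block ended the calls of Slc18a1 (-0.92, adjusted p = 0.0933) and Gch1 (-0.85, 0.200) and had Th called higher (0.48, 0.0355). Counts over all genes in passaged against primary spheres were less stable. There 1656 were called, against 984 with normexp, 5286 without a filter and 952 with the block. Within slides 3 and 4 the counts were 1053 and 1012. Without passaged cultures 2 and 4 they were 813 and 785. With the median gene set to no difference, chosen after seeing the data, 48.3% of calls were higher in primary spheres than in TH-MYCN SMG, against 60.4% before, and 48.2% in passaged spheres, against 58.9%. Dim genes are measured least well in passaged spheres, where 49.0% to 53.9% of spots were well above background.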
